A study of Saccharomyces cerevisiae with 44 samples.

Results

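The copy number of chromosomes, chromosome segments and repeats was read from the 20 Total libraries among the 44 samples of the study. Total DNA was the unselected genomic DNA of each culture, sequenced beside a fraction enriched for the thymidine analog BrdU (IP). All libraries named Total were taken, 2 replicates from each of 10 strains of the budding yeast Saccharomyces cerevisiae, and no library was left out.

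The 9 mutants were ctf19∆, ctf19∆ fkh1∆ fkh2-dsm, fkh1∆ fkh2-dsm, fkh1∆, dbf4∆C, dbf4-Zn*1, dbf4-Zn*2, fkh1∆ dbf4-Zn*1 and fkh1∆ dbf4-Zn*2, and each was set against WT. All 10 strains were haploid W303 cells with RAD5 and without BAR1, so that α-factor held them in G1, and all carried an integrated cassette (BrdU-Inc) that lets yeast take up BrdU. The study's strain list places this cassette at leu2 in WT, dbf4-Zn*1, dbf4-Zn*2 and both fkh1∆ dbf4-Zn* strains, and at ura3 in ctf19∆, ctf19∆ fkh1∆ fkh2-dsm, fkh1∆ fkh2-dsm and fkh1∆. It lists dbf4∆C with either site, and dbf4∆C is counted with the ura3 strains below from its own URA3 copy. Only the dbf4-Zn* strains were made by transforming the WT strain: the ura3 strains came out of a different cross, and both fkh1∆ dbf4-Zn* strains from a cross of a dbf4-Zn* strain with a fkh1∆ fkh2∆ strain. In these 7 mutants parentage and the named alleles cannot be told apart. Cells were released at 23 °C into 200 mM hydroxyurea with 400 µg/mL BrdU and, by the labels, harvested after 60 min, although the study's methods give a longer time for dbf4∆C. The labels number the replicates 1 and 2 without saying whether they came from separate cultures, so p-values measure the spread between these libraries, which may be technical.

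Ctf19 is a kinetochore protein, part of the complex that ties centromeres to spindle microtubules, and cells without it lose and gain chromosomes at raised rates. It also brings the Dbf4-dependent kinase, the trigger of origin firing, to centromeres, while the forkhead factors Fkh1 and Fkh2 do so at many early origins. Hydroxyurea starves cells of nucleotides and stalls forks near the earliest origins, so Total DNA from such cells carries copy number of 2 kinds. One is fixed in the strain (a lost or gained chromosome, a deletion, an inserted marker, a repeat array), and the other is the DNA already replicated around fired origins.

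The Total libraries held summed bin counts between 435781 and 33840380. The lowest sum belonged to fkh1∆ fkh2-dsm replicate 2, whose median count was 31 per 1-kb bin, against 93 to 2478 in the other 19 libraries. Copy was the mean or median count of a region divided by the library's median 1-kb bin, so that 1 is the usual level of that library. A read was counted in every 50-bp bin it touched, and the noise of neighboring bins showed that reads differed in span: 150 bp apart it correlated at 0.350 to 0.360 in the 4 fkh1∆ dbf4-Zn* libraries, at 0.287 in fkh1∆ replicate 1 and at 0.012 to 0.100 in the other 15. Replicates differed by 1.32 to 1.77 times the variance expected from counting, so none was a copy of another.

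No strain had a gained or lost chromosome. Across 320 values, 16 chromosomes in each of 20 libraries, the median copy of a chromosome lay between 0.935 and 1.07, far from the 2 that an extra copy in every cell would give. The pool does not tell a change in a few cells from a smaller change in all of them.

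In ctf19∆, where chromosome loss was the question, the lowest and highest chromosome medians were 0.982 (II) and 1.02 (I) in replicate 1 and 0.979 (IX) and 1.02 (V) in replicate 2, against 0.963 (I) and 1.01 (IV) in WT replicate 1 and 0.969 (I) and 1.01 (V) in WT replicate 2. No chromosome stood out from this narrow band in either ctf19∆ library. The largest fitted ctf19∆ difference was on chromosome I, at 0.06 ± 0.01 (SE) on the log2 scale over WT. Chromosome I was above the same WT libraries in every mutant, between 0.02 (dbf4∆C, not called) and 0.10 (fkh1∆ dbf4-Zn*2). edgeR's quasi-likelihood test was run on chromosome sums (adjusted p under 0.05 over the chromosome tests of all 9 mutants together). In ctf19∆ 3 of 16 passed (18.8%), chromosome I, chromosome III at -0.03 and chromosome VIII at -0.04. In ctf19∆ fkh1∆ fkh2-dsm the medians ran between 0.957 and 1.03 and 5 chromosomes passed (31.2%), I (0.06), III (-0.06), VIII (-0.06), X (-0.01) and XV (-0.02). These calls depend on the scaling: without TMM factors 13 and 10 chromosomes were called in ctf19∆ and ctf19∆ fkh1∆ fkh2-dsm, all of them higher, and limma on chromosome medians of 50-bp bins called 0 in both (0 in each of the 9 mutants). The sums of chromosome III include LEU2, with copy 1.86 and 1.76 in WT and 0.822 and 0.941 in ctf19∆. They also include a stretch missing at an origin in both ctf19∆ strains (below). The part of these loci in the chromosome III differences was not tested. The sums of chromosome VIII include the CUP1 array, which was short in both ctf19∆ strains, fkh1∆ fkh2-dsm and fkh1∆ dbf4-Zn*2 (below). Chromosome VIII stood at -0.05 in fkh1∆ fkh2-dsm and at -0.04 in fkh1∆ dbf4-Zn*2. In the mutants with longer arrays it stood between -0.03 (dbf4∆C) and 0.01 (fkh1∆ dbf4-Zn*1).

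**Figure D1:**
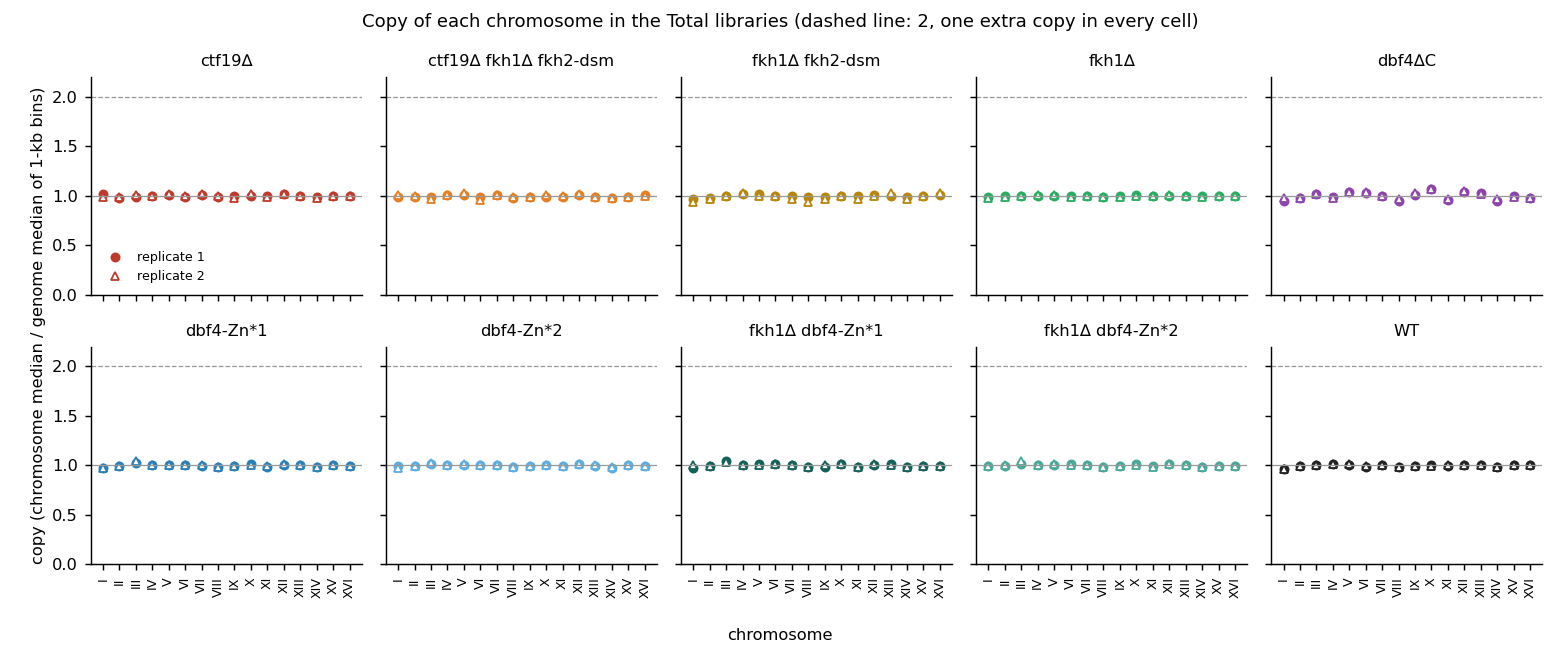
Copy of the 16 chromosomes (x axis) in each strain, as the chromosome median over the genome median of 1-kb bins (y axis), with a filled circle for replicate 1 and an open triangle for replicate 2. All points lie between 0.935 and 1.07, far under the dashed line at 2.

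Small differences were also called in the other mutants, none of which reached the 0.3 on the log2 scale set for a copy change. In dbf4∆C, 12 of 16 chromosomes passed (75%), led by chromosome X at 0.10 ± 0.01 (SE), whose median copy was 1.07 in both dbf4∆C libraries. In fkh1∆ dbf4-Zn*1 and fkh1∆ dbf4-Zn*2, 12 (75%) and 15 (93.8%) passed, with chromosome III highest at 0.12 and 0.11. In dbf4-Zn*1 and dbf4-Zn*2, 6 (37.5%) and 7 (43.8%) passed, all higher and again led by chromosome III (0.08 and 0.06), whereas without TMM factors 3 of 5 calls in dbf4-Zn*1 and none of 6 in dbf4-Zn*2 were higher. In fkh1∆ fkh2-dsm 4 passed (25%), I, II, VII and VIII, and in fkh1∆ 2 did (12.5%), I and XIV. With 1 library left out, the fkh1∆ fkh2-dsm count was 1 without WT replicate 2 and 2 without WT replicate 1, and the fkh1∆ count was 0 without fkh1∆ replicate 1 and 1 without WT replicate 2. Scaling moved the directions here too: without TMM factors the higher calls were 10 of 10 in dbf4∆C (8 of 12 with TMM), 6 of 10 in fkh1∆ dbf4-Zn*1 (11 of 12), 7 of 11 in fkh1∆ dbf4-Zn*2 (13 of 15) and 0 of 3 in fkh1∆ fkh2-dsm (1 of 4). With DESeq2 they were 3 of 5 in fkh1∆ fkh2-dsm, 2 of 3 in fkh1∆ (2 of 2 with TMM) and 1 of 2 in ctf19∆ (1 of 3). The largest size among the fitted differences of all 9 mutants was 0.12.

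Below the scale of chromosomes, the genome was cut into 605 windows of 20 kb, and these held clear differences. With edgeR on window counts, dbf4∆C differed from WT at the most windows, 200 (33.1%). Next came fkh1∆ dbf4-Zn*2 with 90 (14.9%) and fkh1∆ dbf4-Zn*1 with 84 (13.9%), then ctf19∆ fkh1∆ fkh2-dsm with 53 (8.76%), dbf4-Zn*1 with 46 (7.6%), dbf4-Zn*2 with 42 (6.94%), fkh1∆ fkh2-dsm with 36 (5.95%), ctf19∆ with 28 (4.63%) and fkh1∆ with 4 (0.661%). A fit of limma to window medians, which leave out short stretches, called fewer in each strain, between 0 in fkh1∆ and 100 in dbf4∆C. The windows of the dbf4-Zn* and fkh1∆ dbf4-Zn* strains were mostly gains: 72 of 84 (11.9% of all windows) and 75 of 90 (12.4%) were higher in fkh1∆ dbf4-Zn*1 and fkh1∆ dbf4-Zn*2, and 39 of 46 (6.45%) and 36 of 42 (5.95%) in dbf4-Zn*1 and dbf4-Zn*2. Without TMM factors the higher share was smaller in 3 of these, 57 of 112 in fkh1∆ dbf4-Zn*1, 62 of 108 in fkh1∆ dbf4-Zn*2 and 29 of 43 in dbf4-Zn*2, and it was larger in 3 others: 58 of 68 (12 of 28 with TMM) in ctf19∆, 48 of 62 (17 of 53) in ctf19∆ fkh1∆ fkh2-dsm and 135 of 180 (116 of 200) in dbf4∆C. The share in fkh1∆ fkh2-dsm was 11 of 35 (19 of 36), and that in fkh1∆ was 2 of 5 (1 of 4).

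In the fkh1∆ dbf4-Zn* strains, whole 20-kb windows stood at about 2 copies, the level that DNA replicated in all cells would have. The window at chromosome IV 900001-920000 had copy 2.14 and 2.11 in fkh1∆ dbf4-Zn*1, 2.09 and 2.15 in fkh1∆ dbf4-Zn*2, and 1.07 and 1.11 in WT (the files do not state their genome build). All 4 fkh1∆ dbf4-Zn* libraries were near 2 times the level of the 2 WT libraries, and the fitted differences were 0.87 ± 0.04 and 0.88 ± 0.04 (SE, log2, edgeR adjusted p = 7.55e-20 and 6.1e-20). These 4 libraries are also those with the longer read span (150-bp correlation 0.350 to 0.360, against 0.074 and 0.100 in WT and 0.014 to 0.068 in dbf4-Zn*1 and dbf4-Zn*2), which touches every comparison of these 2 strains here, and its part was not tested. ADK1, encoding adenylate kinase, and GTB1, encoding the beta subunit of glucosidase II, lay in a segment of chromosome IV whose windows were called higher over 60 kb in both strains: the copy of ADK1 was 2.26 and 2.31 in fkh1∆ dbf4-Zn*1, 2.27 and 2.42 in fkh1∆ dbf4-Zn*2, and 1.05 and 0.896 in WT. These genes, and those of the next paragraph, were named after their values were seen.

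Gains of this size were also seen on chromosomes II, III and XII. The window at chromosome III 60001-80000 had copy 1.88 and 1.93 in fkh1∆ dbf4-Zn*1, 1.90 and 1.90 in fkh1∆ dbf4-Zn*2, and 0.903 and 0.928 in WT. It holds HIS4, an enzyme of histidine synthesis, BIK1, a microtubule-binding protein, and RNQ1, the protein of the PIN prion, and the copy of RNQ1 was 2.05 and 1.92 in fkh1∆ dbf4-Zn*1, 1.87 and 1.79 in fkh1∆ dbf4-Zn*2, and 0.787 and 0.747 in WT. On chromosome II, 4 windows in a row (200001-280000) were higher in both strains, by a mean of 0.52 and 0.53 on the log2 scale, and the histone H2A gene HTA2 within them had copy 2.44 and 2.47 in fkh1∆ dbf4-Zn*1, 2.49 and 2.18 in fkh1∆ dbf4-Zn*2, and 1.09 and 1.11 in WT. None of the WT values of these genes came near those of the 4 mutant libraries. On chromosome XII the pyruvate decarboxylase gene PDC1 was higher too, by 1.10 ± 0.09 and 1.14 ± 0.09 (SE, log2) in the 2 strains.

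The 2 fkh1∆ dbf4-Zn* strains shared most of their gains, with 66 windows higher in both, which was 91.7% of the 72 in fkh1∆ dbf4-Zn*1 and 88% of the 75 in fkh1∆ dbf4-Zn*2 (both comparisons use the same 2 WT libraries). Set directly against each other, they differed at 5 of 605 windows (0.826%). Compared with its own dbf4-Zn* strain, fkh1∆ dbf4-Zn*1 differed at 80 windows (13.2%) and fkh1∆ dbf4-Zn*2 at 81 (13.4%). The interaction of fkh1∆ with the dbf4-Zn* allele passed edgeR's test at 48 windows for dbf4-Zn*1 (7.93%) and 57 for dbf4-Zn*2 (9.42%). Of the windows higher than WT in fkh1∆ dbf4-Zn*1 and fkh1∆ dbf4-Zn*2, 49 of 72 and 49 of 75 held an origin peak, whereas 245 of all 605 windows did. The share was similar among their lower windows, 8 of 12 and 9 of 15. Of the 32 windows at chromosome ends, 10 and 15 were higher in these 2 strains (11.9% and 12.4% of all windows were). In dbf4∆C 12 of the 32 were higher, and in dbf4-Zn*1 and dbf4-Zn*2 0 were.

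In dbf4-Zn*1 and dbf4-Zn*2 alone the leading gains were smaller. The window at chromosome III 60001-80000 had copy 1.37 and 1.26 in dbf4-Zn*1, 1.29 and 1.31 in dbf4-Zn*2, and 0.903 and 0.928 in WT, a difference of 0.42 ± 0.04 and 0.40 ± 0.04 (SE, log2, adjusted p = 2.36e-10 and 7.1e-10). Nearly all of their higher windows held an origin peak, 34 of 39 and 32 of 36. So did all of their lower windows, 7 of 7 and 6 of 6. Other windows named by size were chromosome II 240001-260000, at 0.33 in dbf4-Zn*1 and 0.30 in dbf4-Zn*2, and chromosome VII 880001-900000, at 0.33 and 0.31.

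dbf4∆C, which lacks the end of the kinase's regulatory subunit, changed in the broadest stretches. Its 116 higher and 84 lower windows included 39 runs of at least 2 adjacent windows in 1 direction, the longest of 9 windows (180 kb, chromosome X 500001-680000, mean 0.19 on the log2 scale), whereas the longest run was 4 windows in fkh1∆ dbf4-Zn*1, fkh1∆ dbf4-Zn*2 and dbf4-Zn*1. The largest single gain was at chromosome IV 920001-940000, with copy 1.37 and 1.32 in dbf4∆C and 0.990 and 0.971 in WT (0.50 ± 0.03, SE, log2, adjusted p = 3.14e-14). Of all windows, 19.2% were called higher in this strain. That window held no origin peak, and neither did 4 of the 5 largest gains of dbf4∆C. Over all its higher windows 56 of 116 held one, and over its lower windows 40 of 84 did. The different harvest time in the methods moves with this strain, and its part in the result was not tested.

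**Figure D2:**
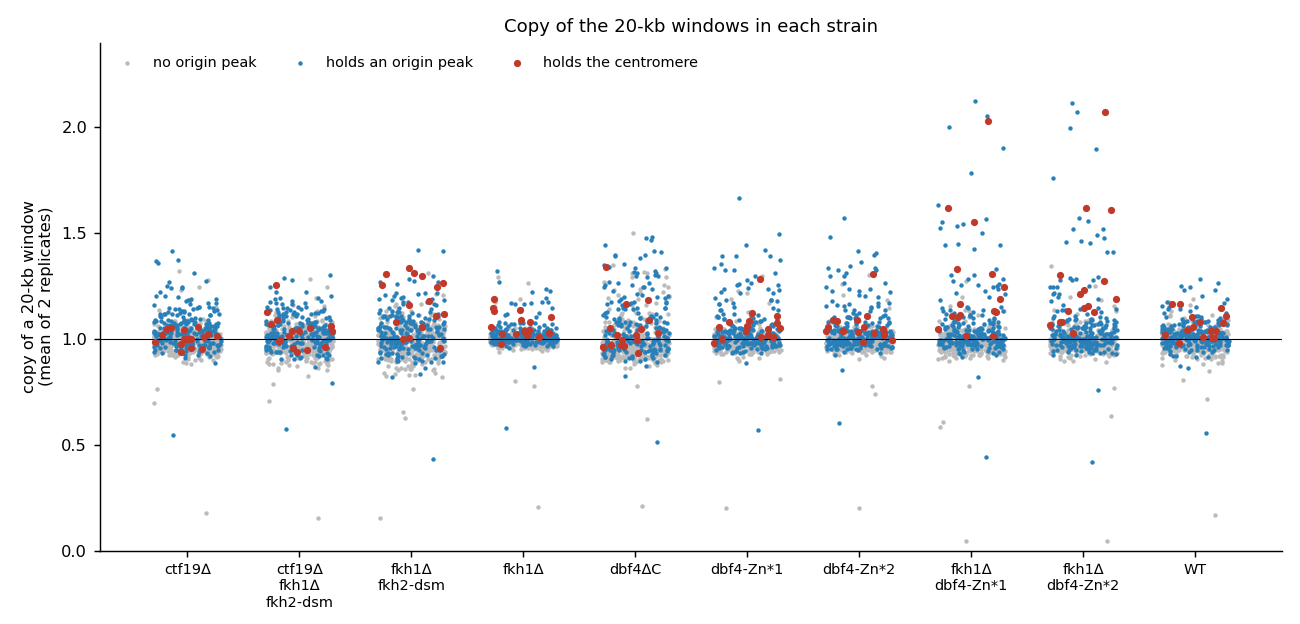
Copy of the 605 windows of 20 kb (y axis, median of 1-kb bins over the genome median, mean of 2 replicates) in each strain (x axis), colored by whether a window holds the centromere, an origin peak or neither. Windows near 2 appear only in the fkh1∆ dbf4-Zn* strains, where the highest reached 2.15 in a single library, against 1.31 in WT.

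Centromeres are usually among the first places to replicate, and the windows holding them changed in several strains. Of the 16 windows with a centromere, 8 were lower and none higher in ctf19∆ (2.64% of all windows lower), with a median of -0.11 on the log2 scale against 0.00 over all windows, and 8 were lower in ctf19∆ fkh1∆ fkh2-dsm (median -0.09, 5.95% of all windows lower). In fkh1∆ fkh2-dsm 6 were higher and none lower (median 0.12, 3.14% of all windows higher). In the fkh1∆ dbf4-Zn* strains 9 were higher in each and 1 was lower in fkh1∆ dbf4-Zn*1 only (medians 0.13 and 0.12, 11.9% and 12.4% of all windows higher). In dbf4∆C 8 were lower and 2 higher (median -0.07), where 84 of all 605 windows were lower and 116 higher. In dbf4-Zn*1 and dbf4-Zn*2 4 were lower and 2 higher in each (medians -0.02 and -0.04). Of all 605 windows, 7 and 6 were lower in these 2 strains, and 39 and 36 higher. The fkh1∆ median was 0.02. The largest centromere loss in ctf19∆ was at chromosome XIII 260001-280000, with copy 0.969 and 0.911 in ctf19∆ and 1.16 and 1.18 in WT (-0.32 ± 0.04, SE, log2, adjusted p = 2.27e-07), followed by chromosome IX 340001-360000, with copy 0.998 and 0.906 in ctf19∆ and 1.09 and 1.13 in WT (-0.29 ± 0.04). Without TMM factors 6 of the 16 were still lower in each ctf19∆ strain, and 4 were higher in fkh1∆ fkh2-dsm.

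At 5-kb resolution around 282 origin peaks, taken from the mean of the 20 IP profiles, the 32 origins next to centromeres stood apart from the other 250. In ctf19∆, 20 of the 32 were lower and none higher, whereas 5 of the other 250 were lower, with 8.87% of all origins called lower. The median difference was -0.29 for the 32 and 0.02 for the 250. In dbf4∆C, 25 of 32 were lower (31.6% of all origins), in dbf4-Zn*1 18 (13.1%), in dbf4-Zn*2 21 (17.4%), and in ctf19∆ fkh1∆ fkh2-dsm 19 (22.3%). In copy, ctf19∆ had a median of 1.01 and 1.09 over the 32 origins, dbf4∆C had 1.02 and 1.03, dbf4-Zn*1 had 1.09 and 1.15, and dbf4-Zn*2 had 1.09 and 1.12, whereas WT had 1.32 and 1.37. The 8 mutant medians were all below both WT medians.

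The opposite was seen without both forkhead activities. In fkh1∆ fkh2-dsm 10 of the 32 centromere-proximal origins were higher and 1 was lower, with 8.16% of all origins called higher, and their median copy was 1.46 and 1.54, against 1.32 and 1.37 in WT. In fkh1∆ the 46 origins called lower (16.3% of all origins) were all among the other 250, and the median difference of the 32 was -0.03 on the log2 scale. In fkh1∆ dbf4-Zn*1 and fkh1∆ dbf4-Zn*2, 12 of 32 were higher and 4 lower in each (16% and 17.4% of all origins higher). As a set the 32 were not above WT in these 2 strains, with median differences of 0.02 and 0.04. Their median copy was 1.32 and 1.27 in fkh1∆ dbf4-Zn*1 and 1.29 and 1.32 in fkh1∆ dbf4-Zn*2. Against their own dbf4-Zn* strains 20 and 22 of 32 were higher (15.6% and 18.4% of all origins). The interaction of fkh1∆ with the dbf4-Zn* allele was positive at 17 of the 32 for dbf4-Zn*1 and 20 for dbf4-Zn*2, among 20.2% and 25.2% of all origins past the test, while that of ctf19∆ with fkh1∆ fkh2-dsm passed at 0.709% of origins and 2.31% of windows. Of the 32, the largest gain in fkh1∆ dbf4-Zn*1 was at the origin 1.18 kb left of the chromosome II centromere. Its copy was 2.49 and 2.43 in fkh1∆ dbf4-Zn*1, 1.00 and 1.01 in ctf19∆, and 1.38 and 1.52 in WT.

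A deletion that the named alleles do not list was found at one origin. A scan for runs of at least 150 bp (in strains with a median of 25 or more counts per bin over both replicates) or 500 bp (in the other 2) with under 0.2 copies in a mutant and at least 0.5 in WT (means of both replicates) found 150 missing bases at chromosome III 39451-39600, between APA1 and YCL049C, in ctf19∆, fkh1∆ and dbf4∆C. Over these bases the 10 libraries of the 5 strains with the cassette at ura3 had copy 0 to 0.124, the other 8 mutant libraries 1.52 to 2.39, and WT 2.06 and 2.51. The part of the left arm that this stretch lies in is known for the early and efficient origin ARS305.

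The copy of the centered 5-kb region was 0.970 and 1.01 in ctf19∆, 0.966 and 1.06 in ctf19∆ fkh1∆ fkh2-dsm, 1.01 and 1.00 in fkh1∆ fkh2-dsm, 0.920 and 0.942 in fkh1∆, and 1.13 and 1.12 in dbf4∆C, against 1.54 and 1.53 in WT. The replicated peak of WT was absent from all 10 libraries of these strains. The differences ran between -0.72 ± 0.06 (fkh1∆) and -0.45 ± 0.06 (dbf4∆C; SE, log2), each past the threshold. In IP, the 500 bp at the peak stood at 0.109 to 1.80 times the library mean in these 10 libraries, against 22.0 and 25.3 in WT. The remaining 4 strains kept the stretch: the 5-kb copy was 1.79 and 1.93 in dbf4-Zn*1, 1.78 and 1.89 in dbf4-Zn*2, 1.55 and 1.48 in fkh1∆ dbf4-Zn*1, and 1.39 and 1.43 in fkh1∆ dbf4-Zn*2. Their IP at the peak was 18.2 to 19.8 times the library mean in dbf4-Zn*1 and dbf4-Zn*2, and 7.00 to 8.35 in the fkh1∆ dbf4-Zn* strains. A difference between the 5 strains without the stretch and WT at this origin therefore carries a missing stretch as well as the named alleles. The window at chromosome III 20001-40000, which ends in it, was one of the 4 called in fkh1∆ (-0.20 ± 0.03, SE, log2). Without 1-kb bins under 0.5 or over 1.5 copies in WT it was at -0.09 (edgeR adjusted p = 0.459). The called window at III 80001-100000 then went from -0.20 to -0.03 (adjusted p = 0.79). Those at IX 100001-120000, which holds the deleted FKH1, and VI 1-20000 stayed at -0.17 and 0.13.

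**Figure D3:**
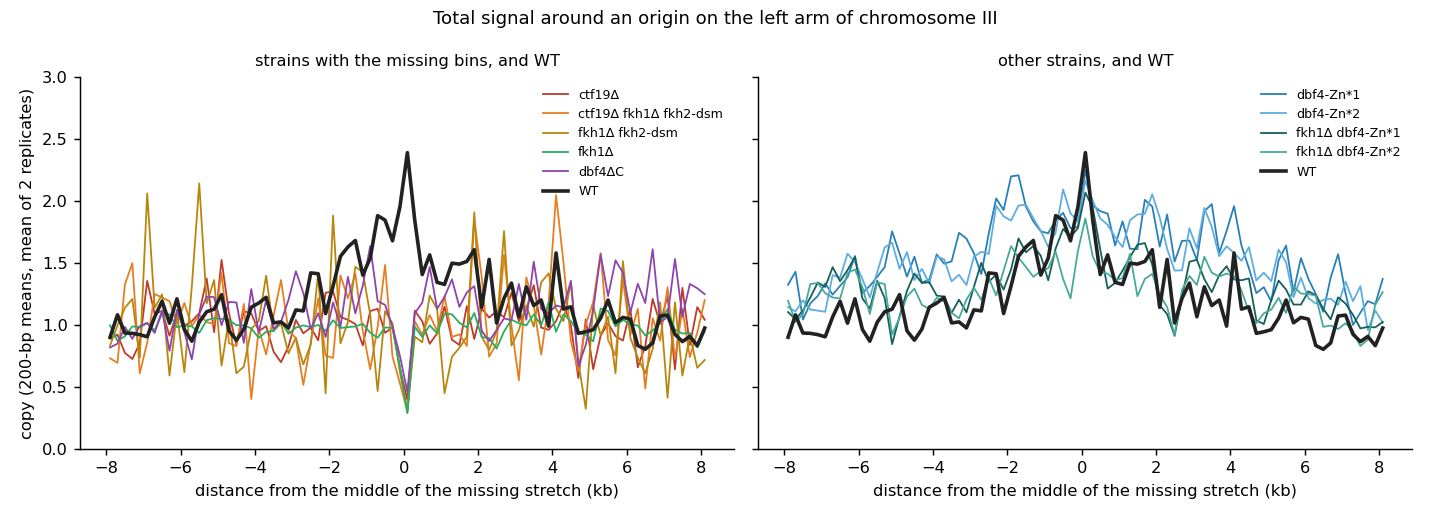
Copy in 200-bp means (y axis, mean of 2 replicates) by distance in kb from the middle of the missing stretch on chromosome III (x axis). The left panel has the 5 strains with missing bins and WT, the right panel the other 4 mutants and WT. The WT peak above 2 is replaced by a dip in the left panel and is kept in the right one.

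The deletions named by the strains were seen in full and served as a check of the labels. CTF19 had copy 0.00 in both libraries of ctf19∆ and of ctf19∆ fkh1∆ fkh2-dsm, with 1100 and 1150 bp missing on chromosome XVI, against 0.861 and 0.937 in WT. FKH1 had 1450 bp missing on chromosome IX in all 5 fkh1∆ strains. Its copy was 0.0056 and 0.0114 in fkh1∆, whereas it was 0.0605 and 0.0441 in fkh1∆ dbf4-Zn*1 and 0.0566 and 0.0672 in fkh1∆ dbf4-Zn*2, against 0.816 and 0.873 in WT. In dbf4∆C the last 150 bp of DBF4 had copy 0.146 and 0.0829, against 1.03 and 1.04 in WT. BAR1, the protease that degrades α-factor, was at 0.00 in all 20 libraries. No library went against its label at these 4 loci, while the dbf4-Zn* and fkh2-dsm alleles, which are not listed as deletions, were not checked from counts.

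Marker genes reported where the cassette sat. URA3, encoding the orotidine phosphate decarboxylase used as a marker, had copy 2.05 and 1.83 in ctf19∆, 1.34 and 2.15 in ctf19∆ fkh1∆ fkh2-dsm, 1.80 and 1.73 in fkh1∆ fkh2-dsm, 1.97 and 1.89 in fkh1∆, and 1.84 and 2.02 in dbf4∆C, against 0.985 and 0.941 in WT. All 5 were called, by 0.82 to 1.02 on the log2 scale, although the call was lost in ctf19∆ fkh1∆ fkh2-dsm without its replicate 2 (0.47) and in fkh1∆ fkh2-dsm without its replicate 1 (0.82). LEU2, a leucine synthesis enzyme, showed the reverse, with copy 0.822 to 1.09 in the 8 libraries of ctf19∆, ctf19∆ fkh1∆ fkh2-dsm, fkh1∆ fkh2-dsm and fkh1∆, against 1.86 and 1.76 in WT, and 1.69 to 2.00 in the dbf4-Zn* and fkh1∆ dbf4-Zn* strains. dbf4∆C lay between, at 1.46 and 1.28 (-0.41 ± 0.11, SE, log2, adjusted p = 0.00942), a call lost without WT replicate 1 or dbf4∆C replicate 2 (-0.49 to -0.30 with each library left out in turn). LEU2 lies within chromosome III 40001-100000, a run of windows higher in dbf4∆C (mean 0.33, lowest 0.12, log2). The part of this regional gain in the LEU2 value of dbf4∆C was not tested. TRP1 was higher in ctf19∆, at 2.51 and 2.00 against 1.42 and 1.40 in WT (adjusted p = 0.00536), a call that held only without ctf19∆ replicate 2 when each library was left out in turn (0.50 to 0.82 on the log2 scale), and its values in ctf19∆ fkh1∆ fkh2-dsm were 1.87 and 2.10 (adjusted p = 0.154). HIS3 was lower in ctf19∆ fkh1∆ fkh2-dsm, at 0.551 and 0.397 against 0.791 and 0.992 in WT (edgeR adjusted p = 0.0403). The log2 difference was -0.89 ± 0.23 (SE), and -1.17 to -0.70 with each library left out in turn. The 2 fkh1∆ dbf4-Zn* strains, listed with the marker URA3MX in place of FKH1, had URA3 at 1.02, 1.09, 0.931 and 1.01. Both ctf19∆ strains are listed with a TRP1 marker of Kluyveromyces lactis in place of CTF19. Whether reads of these markers align to the yeast genes was not tested.

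The 500 bp upstream of the glycolysis gene TDH3 and of the alcohol dehydrogenase gene ADH1 stood near 2 in every strain, WT included. Upstream of TDH3 the copy was at least 1.73 in each of the 18 mutant libraries, and 1.94 and 1.86 in WT. Upstream of ADH1 it was 1.65 to 2.58, and 1.96 and 1.85 in WT. The TDH3 coding region lies in the window at chromosome VII 880001-900000, which was itself higher in dbf4-Zn*1 and dbf4-Zn*2 (0.33 and 0.31, log2). In dbf4∆C that window was part of a run of higher windows (780001-920000, mean 0.30). The part of these regional gains in the TDH3 values was not tested. In dbf4∆C the TDH3 coding region itself had copy 1.20 and 1.35. The values were 1.26 and 1.16 in dbf4-Zn*1, 1.22 and 1.23 in dbf4-Zn*2, 1.09 and 1.08 in fkh1∆ dbf4-Zn*1, and 1.13 and 1.11 in fkh1∆ dbf4-Zn*2, against 0.777 and 0.826 in WT. It was called in all 5 (0.44 to 0.70 on the log2 scale), and in dbf4∆C with each library left out in turn, whereas in fkh1∆ dbf4-Zn*1 the call was lost in all 4 such fits, in dbf4-Zn*2 in 3, and in dbf4-Zn*1 and fkh1∆ dbf4-Zn*2 in 2 each.

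**Figure D4:**
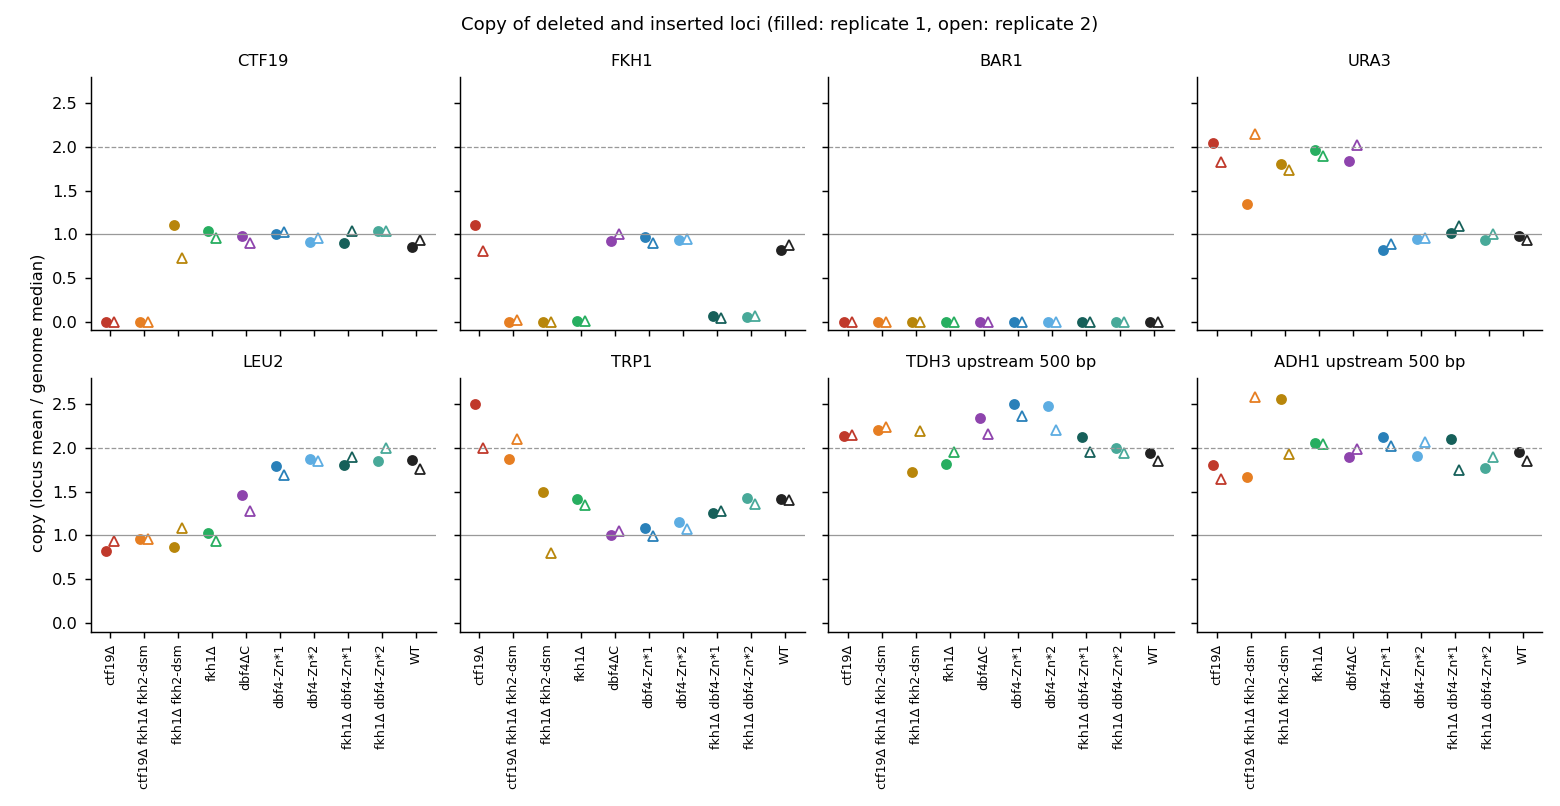
Copy of 8 loci (y axis, locus mean over the genome median) in each strain (x axis), with filled circles for replicate 1 and open triangles for replicate 2. CTF19, FKH1 and BAR1 fall to 0 where they are deleted, URA3 and LEU2 split the strains in opposite ways, and the regions upstream of TDH3 and ADH1 lie near 2 in all of them.

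The scan found other missing stretches of more than 250 bp in both fkh1∆ dbf4-Zn* strains and in no other strain. The longer one covered 1350 bp of AFI1 on chromosome XV (566451-567800), a gene for a polarity protein next to ADE2, with copy 0.0060 and 0.0119 in fkh1∆ dbf4-Zn*1, 0.0076 and 0.0125 in fkh1∆ dbf4-Zn*2, and 1.02 and 1.13 in WT, and 300 bp more were missing at 568101-568400. AFI1 as a whole differed by -1.29 ± 0.10 and -1.21 ± 0.10 (SE, log2, adjusted p = 2.71e-13 and 1.28e-12). AFI1 was named after the values were seen, and both strains came from a cross with the same fkh1∆ fkh2∆ strain. ADE2 itself was not called, with copy 0.828 and 0.963 in fkh1∆ dbf4-Zn*1, 0.963 and 0.947 in fkh1∆ dbf4-Zn*2, and 1.00 and 0.913 in WT. The scan also found runs of 150 to 250 bp in these 2 strains, many of them beside noncoding RNA, PAU or Ty genes, where the longer read span of their libraries moves with the result, and its part was not tested. In ctf19∆ it found 150 bp at chromosome II 7201-7350.

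Tandem repeats differed in size. CUP1, encoding the copper-binding metallothionein, lies in an array on chromosome VIII whose length sets copper resistance. Read over the raised 4000-bp stretch (212251-216250), which holds 2 units, the array had 4.24 and 4.45 copies in ctf19∆, 4.46 and 4.55 in ctf19∆ fkh1∆ fkh2-dsm, 4.01 and 5.10 in fkh1∆ fkh2-dsm, and 4.47 and 4.60 in fkh1∆ dbf4-Zn*2, against 14.4 and 15.0 in WT. The strains fell into 2 levels with no value between 5.10 and 11.9. The other 5 mutants had 11.9 and 13.8 (fkh1∆), 13.4 and 12.0 (dbf4∆C), 14.3 and 15.8 (dbf4-Zn*1), 14.0 and 15.3 (dbf4-Zn*2), and 13.9 and 13.9 copies (fkh1∆ dbf4-Zn*1).

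The 4 short arrays differed from WT by -1.69 to -1.78 on the log2 scale (SE 0.07 to 0.08, edgeR adjusted p between 1.41e-21 and 4.28e-20). Array length differed between the 2 fkh1∆ dbf4-Zn* strains: fkh1∆ dbf4-Zn*1 stood 1.61 ± 0.07 above fkh1∆ dbf4-Zn*2 (SE, log2, adjusted p = 8.76e-21). By name these strains differ only in the zinc-finger allele, and they had the same read span. With a single strain for each genotype, whether array length goes with the named alleles or with parentage was not tested. The array decided the largest window loss, chromosome VIII 200001-220000, at -0.90 ± 0.05 in ctf19∆, and without 1-kb bins under 0.5 or over 1.5 copies in WT the same window was at -0.02 (adjusted p = 0.88). In dbf4∆C the array was called at -0.21 ± 0.07 (adjusted p = 0.0383), a call lost without either WT library or dbf4∆C replicate 2 (-0.29 to -0.13), without TMM scaling (-0.19) and with DESeq2 (-0.21).

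The rDNA, the array of ribosomal RNA genes on chromosome XII, ranged less. Counted over the 2 units of the reference (451401-468900), ctf19∆ had 134 and 130 copies, ctf19∆ fkh1∆ fkh2-dsm had 143 and 141, and dbf4∆C had 125 and 133, whereas WT had 170 and 177. These 6 libraries were all below both WT libraries, and the differences were -0.40 ± 0.08, -0.30 ± 0.08 and -0.42 ± 0.08 (SE, log2, adjusted p = 0.00228, 0.0412 and 0.000441). The ctf19∆ call was lost without WT replicate 2 or ctf19∆ replicate 2 (-0.43 to -0.37 with each library left out in turn), and that of ctf19∆ fkh1∆ fkh2-dsm without any 1 of its 4 libraries (-0.33 to -0.27), whereas dbf4∆C was called throughout (-0.47 to -0.38). The other 6 mutants were not called: fkh1∆ fkh2-dsm had 197 and 177 copies, fkh1∆ 166 and 154, dbf4-Zn*1 189 and 172, dbf4-Zn*2 204 and 189, fkh1∆ dbf4-Zn*1 183 and 175, and fkh1∆ dbf4-Zn*2 175 and 181.

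**Figure D5:**
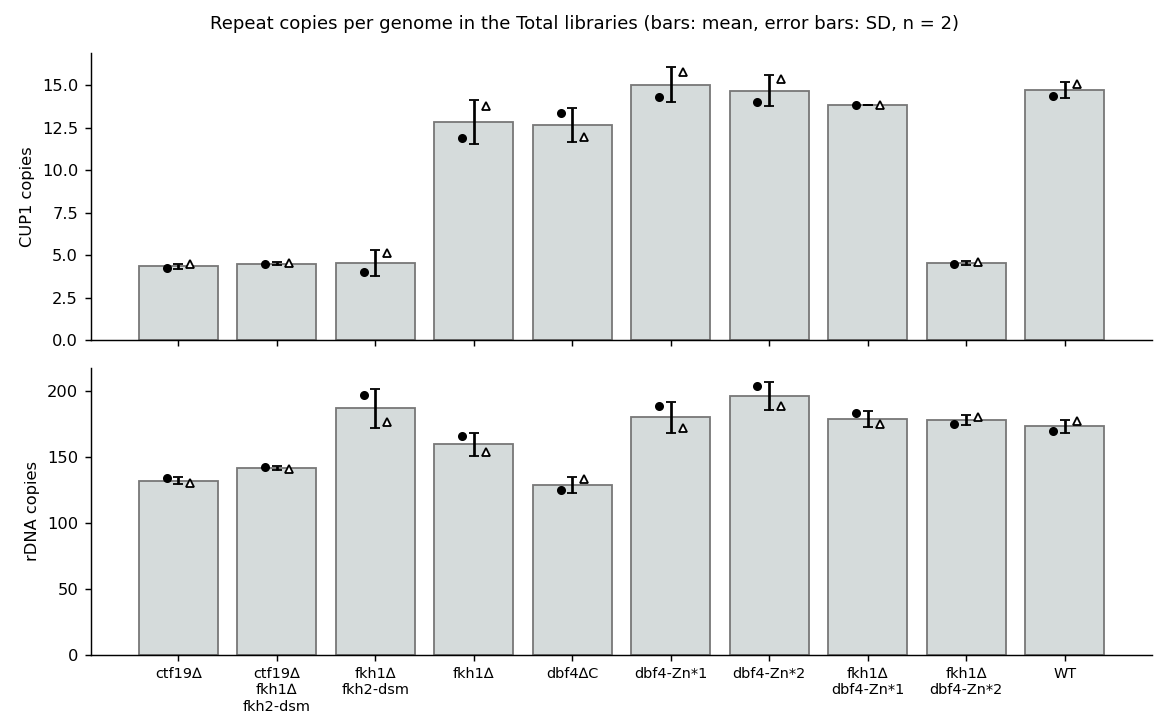
Copies of the CUP1 and rDNA arrays per genome (y axes) in each strain (x axis). Bars are means, error bars the SD (n = 2), circles replicate 1 and triangles replicate 2. CUP1 takes 2 levels, 4.01 to 5.10 and 11.9 to 15.8 copies, and the rDNA lies between 125 and 204.

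Among 6068 genes and repeat classes, dbf4∆C differed from WT at 454 (7.48%), fkh1∆ dbf4-Zn*2 at 335 (5.52%), fkh1∆ dbf4-Zn*1 at 331 (5.45%), dbf4-Zn*1 at 105 (1.73%), dbf4-Zn*2 at 95 (1.57%), ctf19∆ fkh1∆ fkh2-dsm at 86 (1.42%), ctf19∆ at 74 (1.22%), fkh1∆ fkh2-dsm at 46 (0.758%) and fkh1∆ at 14 (0.231%). These counts were not stable when a library was left out: dbf4∆C had 168 to 308, fkh1∆ dbf4-Zn*2 had 198 to 228, fkh1∆ dbf4-Zn*1 had 201 to 220, dbf4-Zn*1 had 33 to 53, dbf4-Zn*2 had 17 to 40, ctf19∆ fkh1∆ fkh2-dsm had 36 to 107, ctf19∆ had 30 to 66, fkh1∆ fkh2-dsm had 23 to 453 and fkh1∆ had 6 to 10. The 453 was without fkh1∆ fkh2-dsm replicate 1, which leaves its shallow library alone. The higher genes among those called were 22 of 74 in ctf19∆ (46 of 91 without TMM factors), 21 of 86 in ctf19∆ fkh1∆ fkh2-dsm (41 of 88, and 48 of 127 with DESeq2) and 17 of 46 in fkh1∆ fkh2-dsm (12 of 45, and 34 of 71 with DESeq2). Changes of at least 1 on the log2 scale were few: 45 in fkh1∆ dbf4-Zn*2, 41 in fkh1∆ dbf4-Zn*1, 16 each in ctf19∆ fkh1∆ fkh2-dsm and fkh1∆ fkh2-dsm, 12 in ctf19∆, 6 in dbf4∆C, 4 in fkh1∆ and none of those called in dbf4-Zn*1 or dbf4-Zn*2. In ctf19∆ they were CTF19, the CUP1 array and its neighbors RSC30 and the RUF5 RNAs, LEU2, and YFL067W near the end of chromosome VI, which had copy 1.63 and 1.37 in ctf19∆ and 0.538 and 0.489 in WT. YFL067W was also higher in the other 4 strains with the cassette at ura3, by 1.54 in dbf4∆C, 1.53 in fkh1∆, 1.21 in ctf19∆ fkh1∆ fkh2-dsm and 1.10 in fkh1∆ fkh2-dsm (log2), and by less, 0.90 and 0.79, in fkh1∆ dbf4-Zn*1 and fkh1∆ dbf4-Zn*2.

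Beside YFL067W, URA3 and FKH1, the fkh1∆ list held the seripauperin gene PAU12 (1.00). In dbf4∆C, TIM10, encoding a chaperone of mitochondrial import, had copy 0.874 and 0.643, against 1.57 and 1.98 in WT (-1.30 ± 0.23, SE, log2), while YCL042W (1.07), PAU12 (1.07) and the carnitine acetyltransferase gene YAT1 (1.03) were higher. In ctf19∆ fkh1∆ fkh2-dsm, NME1, the RNA of the RNase MRP enzyme, had copy 0.426 and 0.461, against 1.11 and 1.11 in WT (-1.34), SUS1 and LDB16 were lower too (-1.21 and -1.10), and PAU12 was higher (1.13). In fkh1∆ fkh2-dsm, YAL064W-B, PAU12 and YCR006C were higher by 1.26, 1.18 and 1.06, and RUF22 was lower (-1.08). YAL064W-B had copy 1.64 and 3.23 in fkh1∆ fkh2-dsm, against 0.937 and 0.733 in WT, and its higher value came from the shallow library.

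Beside the deleted FKH1 (-4.06 and -3.77 on the log2 scale), the largest losses of the fkh1∆ dbf4-Zn* strains lay in repeated sequence. RDN5-3, a 5S RNA gene set outside the rDNA array, had copy 0.350 and 0.501 in fkh1∆ dbf4-Zn*1, 1.11 and 1.04 in fkh1∆ dbf4-Zn*2, and 8.43 and 7.20 in WT. YLR157C-C and YLR159C-A, also on chromosome XII, were lower in fkh1∆ dbf4-Zn*1 (-4.90 and -4.29 on the log2 scale) and in fkh1∆ dbf4-Zn*2 (-3.12 and -2.92). The subtelomeric genes PAU19, PAU11 and YGL260W and the hexose transporter HXT17 were lower in both strains (-4.36 to -2.72 on the log2 scale), and their WT copy of 0.0737 to 0.530 was already below 1. The 4 libraries with the longest read span were the 4 in which these genes were low, and the part of read span in this was not tested.

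The asparaginase genes ASP3-1 to ASP3-4, 4 copies between 5S genes on chromosome XII, were lowered in 1 strain. ASP3-2 had copy 0.421 and 0.483 in fkh1∆ dbf4-Zn*1, 1.28 and 1.26 in fkh1∆ dbf4-Zn*2, and 1.06 and 1.02 in WT. All 4 genes passed in fkh1∆ dbf4-Zn*1, by -0.87 to -1.19 on the log2 scale, and none passed in fkh1∆ dbf4-Zn*2. Set directly against each other, the 2 strains differed at all 4, by -1.06 to -1.48 (adjusted p between 3.68e-12 and 9.25e-08). The 20-kb window beside the rDNA, chromosome XII 460001-480000, had copy 0.571 and 0.599 in fkh1∆ dbf4-Zn*1 and 1.18 and 1.14 in WT.

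Other families that vary among yeast strains varied less here. The YRF1 genes, helicase genes of the Y′ elements at chromosome ends, had copy 1.67 and 1.71 per reference gene in fkh1∆ dbf4-Zn*2, 1.51 and 1.60 in dbf4∆C, and 1.30 and 1.28 in WT, and these 2 strains were called (0.40 ± 0.06 and 0.28 ± 0.06, SE, log2, adjusted p = 6.94e-06 and 0.00221), the dbf4∆C call being lost without WT replicate 2 or dbf4∆C replicate 2 (0.24 to 0.32 with each library left out in turn). The sodium pumps ENA1, ENA2 and ENA5 lay between 1.11 and 1.55 in the 18 mutant libraries and between 1.17 and 1.32 in WT. ENA5 was called in dbf4∆C, at 1.31 and 1.43 against 1.17 and 1.18 in WT (0.24 ± 0.07, SE, log2, adjusted p = 0.0281), a call lost in 3 of the 4 fits with 1 library left out. HMRA1, a mating-type gene with a second copy at the MAT locus of these MATa cells, had copy 2.38 and 2.34 in ctf19∆, and 2.37 and 2.38 in WT.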

How the data were processed

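The authors aligned reads with Bowtie2 and, with SAMtools and bedtools, made the deposited counts: in each of 241434 bins of 50 bp, a count is how many reads touched it, with no normalization. Versions and the genome build are not given in the sources used here. Gene names came from a RefSeq gene table of assembly R64 and were laid on the files' coordinates, which the missing bins at CTF19 and FKH1 fit.

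Bins were summed over 16 chromosomes (rDNA left out), 605 windows of 20 kb, genes of at least 3 bins with a mean count of at least 10 (8 left out), and 282 origins (bins within 2.5 kb of an IP peak at least 2 times the genome mean). Ty classes were not analysed here. Centromeres were placed between the genes nearest on both arms. edgeR 4.0.16 in R 4.3.3 (quasi-likelihood, TMM factors from windows, all 20 libraries, no replicate block) tested each strain against WT with Benjamini-Hochberg adjustment at 0.05, over the chromosome tests of all strains together and otherwise within a comparison. The common dispersion of chromosome sums was raised to 0.0002, since edgeR's deviance failed numerically at the smaller estimate. The SE is the log2 difference over the root of F. limma 3.58.1 and DESeq2 1.42.0 gave alternatives. With 2 libraries a group, an exact permutation test of one value cannot go below p = 0.333, and none was run. The deposited ChIP-seq files were not used. Scripts were tested on simulated data.

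Named were chromosomes past 0.3, up to 5 windows and 10 genes of at least 1 (log2) per comparison, by size, and fixed marker and repeat loci, with exceptions stated. The members and lists were chosen with earlier results of these data known. Intervals and floors were not computed, since a read enters several bins.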

Additional observations from a re-analysis of the deposited data

Results flagged for a closer look

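The effect of a dbf4-Zn* allele on Total copy differed with the FKH1 genotype. The interaction of fkh1∆ with dbf4-Zn*1 passed edgeR's test at 48 of 605 windows of 20 kb (7.93%), positive at 39, and at 57 of 282 origins (20.2%). With dbf4-Zn*2 it passed at 57 windows (9.42%), positive at 48, and at 71 origins (25.2%). The largest was at chromosome II 220001-240000, at 0.61 and 0.66 on the log2 scale. fkh1∆ and the fkh1∆ dbf4-Zn* strains came from different crosses, so parentage and genotype cannot be told apart here, and the 4 fkh1∆ dbf4-Zn* libraries have the longer read span, whose part was not tested.

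The interaction of ctf19∆ with fkh1∆ fkh2-dsm passed at 14 windows (2.31%) and at 2 origins (0.709%). The largest of these windows, at 0.90 on the log2 scale, was chromosome VIII 200001-220000, which holds the CUP1 array. For the CUP1 array the interaction was 1.84 ± 0.11 (SE, log2), with 4.01 to 5.10 copies in all 6 libraries of ctf19∆ fkh1∆ fkh2-dsm, ctf19∆ and fkh1∆ fkh2-dsm, and 14.4 and 15.0 in WT. These mutants came out of a different cross from WT, so parentage and genotype cannot be told apart here. The CUP1 value therefore cannot be read as an effect of the named alleles. The CUP1 interaction of fkh1∆ with dbf4-Zn*2 was -1.50 ± 0.09 (SE, log2, adjusted p = 7.63e-15), with 4.47 and 4.60 copies in fkh1∆ dbf4-Zn*2 and at least 11.9 in fkh1∆, dbf4-Zn*2 and WT, while that of fkh1∆ with dbf4-Zn*1 was 0.08 (adjusted p = 0.979). The same limit of parentage holds for these CUP1 interactions.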

How the results depend on the processing

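No chromosome passed 0.3 on the log2 scale under any alternative, and TMM scaling shifted a library by at most 0.041. Of chromosomes, library sizes without TMM called 13 in ctf19∆ and 10 in ctf19∆ fkh1∆ fkh2-dsm. limma on medians of 50-bp bins called 0 in each of the 9 mutants, and on medians of 1-kb bins 1 in ctf19∆ fkh1∆ fkh2-dsm, 1 in fkh1∆ fkh2-dsm, 2 in fkh1∆ dbf4-Zn*1, and 0 in ctf19∆, fkh1∆, dbf4-Zn*1, dbf4-Zn*2 and fkh1∆ dbf4-Zn*2. Of windows, limma on medians of 1-kb bins called 2 in ctf19∆, 6 in ctf19∆ fkh1∆ fkh2-dsm, 15 in fkh1∆ fkh2-dsm, 0 in fkh1∆, 100 in dbf4∆C, 23 in dbf4-Zn*1, 21 in dbf4-Zn*2, 40 in fkh1∆ dbf4-Zn*1 and 36 in fkh1∆ dbf4-Zn*2. Without TMM ctf19∆ had 68 windows. Without 1-kb bins under 0.5 or over 1.5 copies in WT, 20 were called in ctf19∆ fkh1∆ fkh2-dsm, 16 in fkh1∆ fkh2-dsm and 2 in fkh1∆. DESeq2 called 61 windows and 71 genes in fkh1∆ fkh2-dsm, and 12 windows and 23 genes in fkh1∆. Their causes were not tested. The other 198 recomputed counts stayed within 1.5 times.

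With each library left out in turn (the lone library is then assumed to vary like the others), the chromosomes, windows, genes and origins called were 2 to 3, 6 to 22, 30 to 66 and 17 to 27 in ctf19∆, 4 to 5, 14 to 38, 36 to 107 and 51 to 63 in ctf19∆ fkh1∆ fkh2-dsm, 1 to 4, 6 to 69, 23 to 453 and 41 to 74 in fkh1∆ fkh2-dsm, 0 to 2, 0 to 4, 6 to 10 and 13 to 49 in fkh1∆, 10 to 11, 127 to 170, 168 to 308 and 82 to 98 in dbf4∆C, 5 to 6, 33 to 39, 33 to 53 and 26 to 32 in dbf4-Zn*1, 5 to 6, 32 to 38, 17 to 40 and 12 to 36 in dbf4-Zn*2, 10 to 12, 65 to 72, 201 to 220 and 59 to 68 in fkh1∆ dbf4-Zn*1, and 12 to 13, 66 to 78, 198 to 228 and 57 to 70 in fkh1∆ dbf4-Zn*2. Log2 values that turned sign were not called: the rDNA ran between -0.000682 and 0.18 in fkh1∆ fkh2-dsm and between -0.0167 and 0.12 in dbf4-Zn*1, CUP1 between -0.0429 and 0.10 in dbf4-Zn*1 and between -0.0695 and 0.0562 in dbf4-Zn*2 (0.0293 without WT replicate 2), and the YRF1 genes between -0.10 and 0.00120 in ctf19∆ fkh1∆ fkh2-dsm and between -0.0204 and 0.13 in fkh1∆.

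The replicate numbers did not pair the libraries: replicate differences of mutants and WT correlated at -0.143 to 0.168. A replicate block moved no chromosome count by more than 1.5 times and called 28 windows in ctf19∆, 50 in ctf19∆ fkh1∆ fkh2-dsm, 30 in fkh1∆ fkh2-dsm, 4 in fkh1∆, 197 in dbf4∆C, 45 in dbf4-Zn*1, 41 in dbf4-Zn*2, 84 in fkh1∆ dbf4-Zn*1 and 92 in fkh1∆ dbf4-Zn*2. Leaving out the CUP1 stretch, the end windows or the CUP1 and chromosome III origins was chosen after seeing the data and moved no count by more than 1.5 times. The GC correction was not run, since no genome sequence was used here. Depth limits fkh1∆ fkh2-dsm, whose replicate 2 has a median of 31 counts per 1-kb bin.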
